A study of Mus musculus with 4 samples.

Results

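The H2 genes are the major histocompatibility complex genes of the mouse. They were taken as every gene of the deposited count table that is annotated as protein-coding and whose symbol starts with H2-. That rule gave 34 of 54532 genes, all on chromosome 17 between positions 33996017 and 37483552 of GRCm38, a span of 3.49 Mb. Of these, 2 code for classical class I molecules (K and D) and 22 for class I-like molecules, with 6 in the Q region, 4 in the T region and 12 in the M region. Another 9 code for class II chains, and 1, H2-Ke6, carries the name of the locus but codes for a steroid dehydrogenase.

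The libraries were made from 4 livers of Cpt1a liver-specific KO mice after a 24 h fast, called liver 1 to liver 4. The authors' tables set this Cpt1a knockout, headed Cpt1a_AlbCre, against a reference group headed Rab30Cpt2_f and against a group headed Cpt2_AlbCre, called the Cpt2 group. AlbCre names a transgene in which the albumin promoter drives Cre recombinase in hepatocytes, so other liver cells keep the floxed gene. Both other groups were fasted alike per the design text, which speaks of littermate controls and takes the Cpt2 samples from an earlier series. The sources used here give neither the alleles behind the heading Rab30Cpt2_f nor how many libraries the other groups had, nor the strain, age or H2 haplotype of any mouse. Whether each of the 4 libraries is a mouse of its own is not labelled either, and the variation among them could be technical.

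Class I molecules sit on nearly all nucleated cells, paired with beta-2 microglobulin, and show peptides made inside the cell to CD8 T cells. Class II molecules show peptides from engulfed protein to CD4 T cells and are made mainly by dendritic cells, macrophages and B cells, with little in hepatocytes. The class I-like molecules of the Q, T and M regions vary less between strains and act mostly on natural killer cells and unconventional T cells. H2 alleles differ between strains as haplotypes, and the mouse reference genome is that of C57BL/6J, which carries haplotype b. Reads from another haplotype may align less often to that reference.

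Promoter sequences are shown for members called lower and higher in the comparisons, since class I and class II promoters are known to carry partly different elements. RefSeq (GRCm38.p6) held a promoter window, 250 bases before to 50 after the start, for 31 of the 34 members. The RefSeq start was not always that of the counted gene. For H2-DMa the window lay at 34122582 to 34122881, while the counted gene began at 34135182. A set of 3 motifs was searched on both strands. The kappa B site of class I enhancer A, GGGGATTCC, was found in 0.250% of all 32851 promoter windows of the table. The Y box, CTGATTGG or CCAATCAG on the other strand, was found in 4.10%, and the interferon response element, GAAANNGAAA, in 3.44%. Only these letters were searched, so variant forms of an element are not marked, and a promoter without a match may still hold one. None of the motifs overlap in the sequences shown. The 250 bases before the start of a classical class I gene, of H2-T23 and of a class II gene follow in 5′ to 3′ order of the gene, with these motifs in capitals:
H2-D1 (chr17:35262844-35263093, plus strand): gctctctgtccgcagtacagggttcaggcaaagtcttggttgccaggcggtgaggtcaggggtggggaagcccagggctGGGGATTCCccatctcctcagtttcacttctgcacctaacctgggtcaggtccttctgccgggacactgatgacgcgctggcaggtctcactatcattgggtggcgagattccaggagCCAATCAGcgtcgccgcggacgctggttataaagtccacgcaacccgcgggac
H2-T23 (chr17:36032702-36032951, minus strand): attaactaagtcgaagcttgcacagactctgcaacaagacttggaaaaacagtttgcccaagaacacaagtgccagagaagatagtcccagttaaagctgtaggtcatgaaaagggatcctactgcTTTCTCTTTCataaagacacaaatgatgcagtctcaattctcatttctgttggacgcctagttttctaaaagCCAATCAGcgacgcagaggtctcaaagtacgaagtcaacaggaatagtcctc
H2-Eb1 (chr17:34305617-34305866, plus strand): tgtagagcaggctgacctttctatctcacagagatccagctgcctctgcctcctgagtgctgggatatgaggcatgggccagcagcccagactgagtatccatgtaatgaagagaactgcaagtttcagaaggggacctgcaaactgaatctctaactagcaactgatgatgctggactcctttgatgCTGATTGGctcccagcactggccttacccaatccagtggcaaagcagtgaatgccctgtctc

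H2-K1, H2-D1, H2-Q6 and H2-Q7 were the 4 members with both a kappa B site and a Y box. The Y box of H2-K1 lay 8 bases after the RefSeq start. Those of H2-D1, H2-Q6 and H2-Q7 began 53, 55 and 16 bases before it. By these letters, H2-T23 matched the Y box and the interferon response element, and H2-T22 the interferon response element only. The class II genes H2-Aa, H2-Eb1, H2-Eb2 and H2-Oa matched the Y box only. A Y box only was also found in 8 of 12 M region genes, so it does not set class II apart. Of the Q region genes with a window, H2-Q2, H2-Q4 and H2-Q10 held no match to the letters of the 3 motifs. The stretch of the H2-K1 promoter around the kappa B site and its aligned counterparts are given to show where H2-Q10 departs, with a match to GGGGATTCC in capitals:
H2-K1: agggctGGGGATTCCccatct
H2-D1: agggctGGGGATTCCccatct
H2-Q6: atggctGGGGATTCCccatct
H2-Q7: atggctGGGGATTCCcatct
H2-Q10: agggctgaggactccccatct
Counted from 1 at the 5′ end of the H2-K1 stretch, H2-Q10 differed by G8A and T12C, both inside the site, and H2-Q6 by G2T, outside it. The H2-Q7 stretch is 1 base shorter, so its differences were not counted. H2-Q4 is left out here, since an end of the stretch had no aligned base in its window. Around the Y box, with a match to CCAATCAG in capitals, the stretches were:
H2-K1: caagaaCCAATCAGtgtcgc
H2-D1: caggagCCAATCAGcgtcgc
H2-Q6: cgggaaCCAATCAGcgtcgg
H2-Q7: ccggaaCCAATCAGcgtcgg
H2-Q4: cgggaaccaatcatcgtcgc
H2-Q10: ggggaaccaaccagcgtcgc
H2-Q10 differed from H2-K1 there at 5 bases, of which T11C lies in the box, and H2-Q4 at 4, of which G14T lies in it. A match, or the lack of one, describes these letters in the reference genome and says nothing of binding in these livers.

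Total counts were 13138884 to 14116441 per liver, and H2 members took 0.289 to 0.356% of them. Cpt1a was at 24.4 to 36.9 FPKM in the 4 livers and lower than in the reference group (authors' deposited table, log2 fold change −2.79 with adjusted p = 5.27e-51). In the Cpt2 group, Cpt2 itself was not called against the reference group (log2 fold change −0.07, adjusted p = 0.837, authors' deposited table), so the name of that group rests on its heading. FPKM divide a gene's reads by its length and by the size of the library, so levels can be set side by side between genes. With counts alone, fewer cells of a type and less RNA per cell cannot be told apart.

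The livers carried H2 transcript almost entirely of class I type. Classical class I genes summed to 528 ± 65.0 FPKM (SD, n = 4), or 54.8% of all H2 FPKM, and class I-like genes to 402 ± 55.9 FPKM (SD, n = 4), or 41.6%. Class II genes summed to 34.7 ± 10.2 FPKM (SD, n = 4), or 3.60%. A count was found for 24 members, and 16 had a mean of at least 1 FPKM. The 10 members with no count in any liver were H2-T3 and 9 of the 12 M region genes. For a member at 0, the limit that a count of 0 allows was 3 counts, or 0.213 to 0.228 CPM (counts scaled to library size), and covers counting error only.

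H2-K1 (ENSMUSG00000061232, chromosome 17, 33996017 to 34000333, minus strand), the classical K heavy chain, led the group. It had 438, 320, 349 and 340 FPKM in livers 1 to 4, from 12537 to 17139 counts. Liver 1 was the highest and liver 2 the lowest. H2-D1 (ENSMUSG00000073411, chromosome 17, 35262730 to 35267499, plus strand), the classical D heavy chain, had 182, 147, 173 and 166 FPKM in the same livers. The order of the livers at both ends was that of H2-K1, and with a CV of 8.88% H2-D1 varied least among the members of at least 1 FPKM on the relative scale.

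H2-Q10 (ENSMUSG00000067235, chromosome 17, 35470089 to 35474563, plus strand) codes for a class I-like molecule that the liver secretes into the blood. It came after H2-K1 with 280, 220, 310 and 305 FPKM in livers 1 to 4. The range lay below that of H2-K1 and above that of H2-D1 without overlap, and liver 2 was again the lowest. H2-T23 (ENSMUSG00000067212, chromosome 17, 36029773 to 36032855, minus strand) codes for Qa-1, which shows leader peptides of other class I chains to natural killer cell receptors. It had 58.5, 42.5, 56.2 and 46.4 FPKM in the 4 livers, with liver 1 highest and liver 2 lowest.

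H2-T22 (ENSMUSG00000056116, chromosome 17, 36037128 to 36042747, minus strand), a ligand of some gamma delta T cells, had 12.9, 17.1, 26.2 and 28.4 FPKM. Livers 3 and 4 were above livers 1 and 2, and its SD of 0.51 on the log2(FPKM + 1) scale was the largest of the 16 members. Of the 50-base words in its transcripts, 53.5% also occur in other genes, the largest share of these with H2-T10, so the gene to which its reads belong is uncertain. H2-Q6 and H2-Q7, which code for Qa-2 molecules, had 17.1, 17.2, 23.2 and 20.8 FPKM and 9.56, 9.32, 12.3 and 11.7 FPKM. Both were higher in livers 3 and 4 than in livers 1 and 2. H2-Q4 had 11.5, 12.6, 16.3 and 16.5 FPKM and the same split. Shared 50-base words made up 34.97% of H2-Q6, 26.5% of H2-Q7, 36.4% of H2-Q4 and 19.1% of H2-Q10, so their levels are uncertain in the same way. In H2-K1 and H2-D1 the shares were 9.63% and 12.8%.

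At the low end of the class I-like genes, H2-T24 had 2.87, 3.35, 1.82 and 1.90 FPKM, with livers 1 and 2 above livers 3 and 4, the reverse of H2-T22. H2-M3, which presents peptides with a formylated first residue such as those of bacteria and mitochondria, had 1.58, 1.66, 1.62 and 2.88 FPKM. Liver 4 stood apart from the other 3 livers. H2-Q1 had 0.676, 1.72, 2.01 and 1.58 FPKM, and liver 1 was the lowest.

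The class II chains that form the A molecule, H2-Aa (ENSMUSG00000036594, chromosome 17, 34282744 to 34287827, minus strand) and H2-Ab1 (ENSMUSG00000073421, chromosome 17, 34263209 to 34269418, plus strand), had 8.32, 9.51, 6.56 and 13.5 FPKM and 6.88, 7.68, 5.97 and 10.4 FPKM. H2-Eb1 (ENSMUSG00000060586, chromosome 17, 34305877 to 34316199, plus strand), the beta chain of the E molecule, had 11.9, 12.4, 8.41 and 18.4 FPKM. All 3 were highest in liver 4 and lowest in liver 3. Of the genes whose products exchange peptides on class II molecules, H2-DMa had 1.22, 1.66, 1.15 and 3.22 FPKM and H2-DMb1 had 1.57, 1.66, 2.21 and 2.01 FPKM. H2-DMa followed the order of the A and E chains at both ends, while H2-DMb1 was highest in liver 3. H2-DMb2, H2-Ob, H2-Oa and H2-Eb2 had means of 0.425, 0.375, 0.185 and 0.101 FPKM, from 0 to 21 counts per liver.

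**Figure D1:**
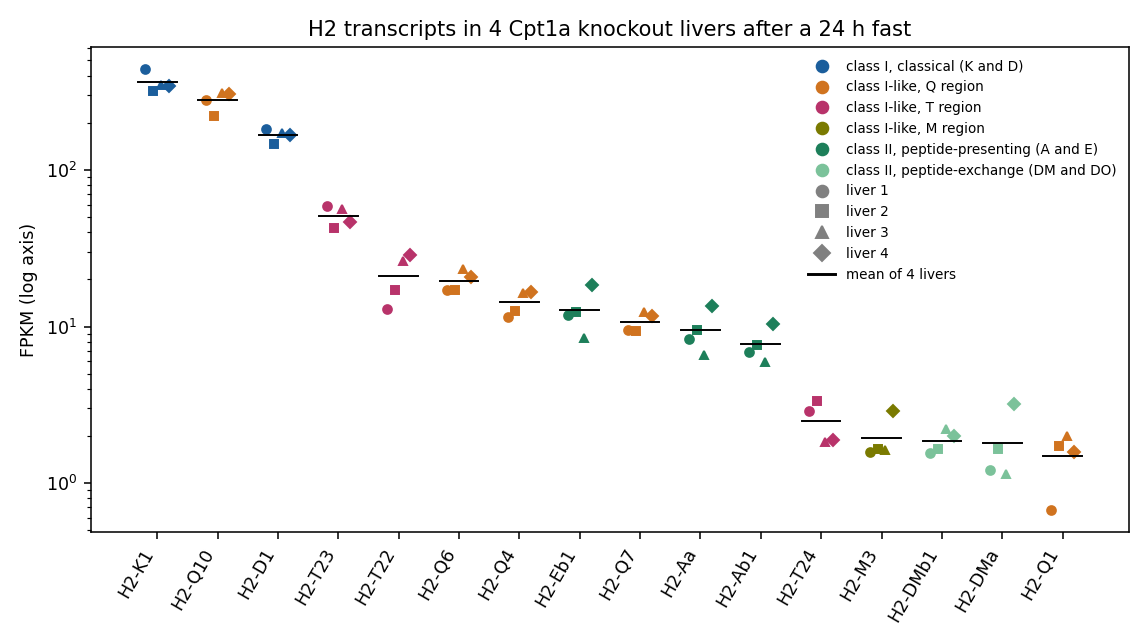
FPKM (log axis) of the 16 H2 genes with a mean of at least 1 FPKM, with 1 symbol per Cpt1a knockout liver, a colour per class and a line at the mean of the 4 livers. Class I genes K1, Q10 and D1 lie above 100 FPKM in every liver, and the A and E chains of class II between 5.97 and 18.4 FPKM.

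By mean FPKM the order was H2-K1, H2-Q10, H2-D1, H2-T23, H2-T22, H2-Q6, H2-Q4, H2-Eb1, H2-Q7, H2-Aa, H2-Ab1, H2-T24, H2-M3, H2-DMb1, H2-DMa and H2-Q1. Neighbours had ranges apart over the 4 livers from H2-K1 down to H2-T22, between H2-Q6 and H2-Q4, and between H2-Ab1 and H2-T24. The ranges of all other neighbours overlapped, although H2-Aa exceeded H2-Ab1 in each of the 4 livers. The median SD between livers on the log2(FPKM + 1) scale was 0.26 for the 16 members and 0.20 for all 10859 genes with a mean of at least 1 FPKM. The CV between livers exceeded that of counting alone in all 16 members, by least for H2-DMb1 (16.1% against 15.3%).

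The sum of the A and E chains shared its highest and lowest livers with the sums of some marker lists. Most single markers of those lists were highest in another liver. The A and E chains summed to 27.1, 29.6, 21.1 and 42.5 FPKM in livers 1 to 4, and 9 B cell markers to 5.59, 6.34, 5.58 and 8.45 FPKM. Liver 4 was the highest and liver 3 the lowest in both, although livers 1 and 3 were nearly tied for B cell markers. The 5 exchange genes summed to 3.29, 4.46, 4.35 and 6.53 FPKM, also highest in liver 4 but lowest in liver 1. The 12 Kupffer cell and macrophage markers summed to 259, 250, 240 and 261 FPKM, with liver 4 narrowly highest and liver 3 lowest. Of these only Lyz2, at 39.9, 46.3, 42.7 and 50.7 FPKM, was highest in liver 4. Most others, such as Vsig4 and Csf1r, were highest in liver 1, and C1qa and C1qc in liver 3. The sum of 8 genes of white blood cells in general was also highest in liver 4, at 38.1, 43.4, 38.0 and 47.2 FPKM. Livers 1 and 3 were nearly tied as the lowest. In contrast, 10 dendritic cell markers summed to 4.72, 6.71, 4.28 and 5.17 FPKM, with liver 2 highest and liver 3 lowest. Cd74, the invariant chain that guides class II molecules to the peptide loading compartment, had 34.2, 36.8, 30.9 and 46.0 FPKM, highest in liver 4 and lowest in liver 3. No marker of these lists was at 0 in the sum over livers. The part of cell makeup in the class II spread was not tested.

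**Figure D2:**
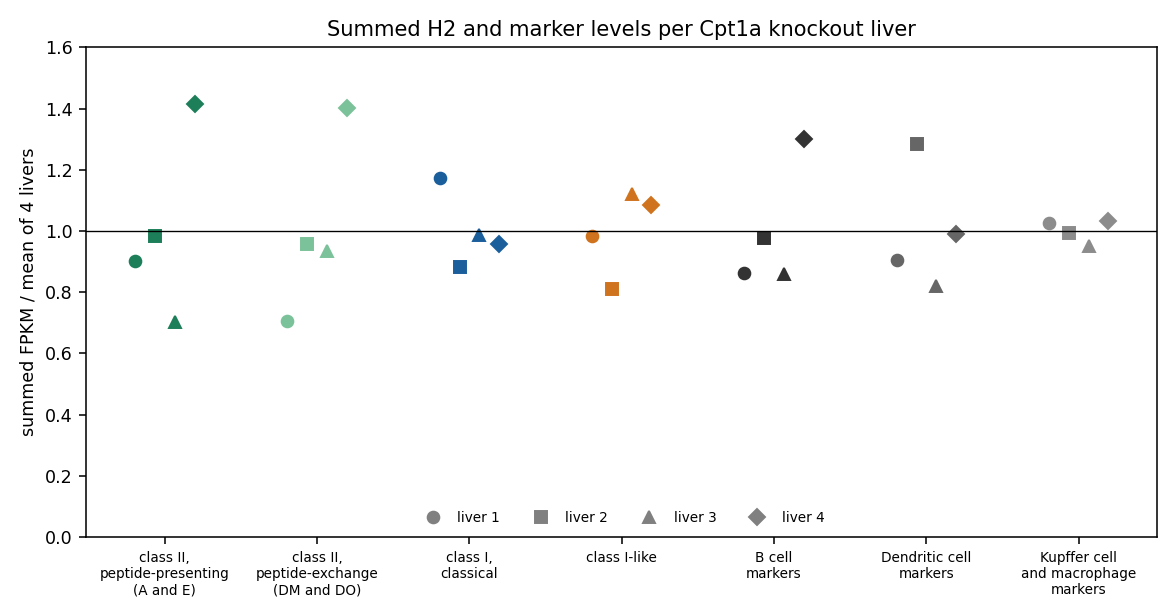
Summed FPKM of H2 classes and of marker lists in each Cpt1a knockout liver, divided by the mean of the 4 livers (line at 1), with 1 symbol per liver. Liver 4 lies highest for both class II groups, for B cell markers and, narrowly, for Kupffer cell and macrophage markers. Liver 1 lies highest for classical class I and liver 2 for dendritic cell markers.

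The comparisons below come from the authors' deposited tables and carry no SD or n. A gene is called where the authors' adjusted p was below 0.05. One table, that of the Cpt1a knockout and the reference group, stops at an unadjusted p of 0.05 and so holds only 13 H2 members. For the others the fold changes of the other tables were added on the log2 scale, a sum that differed by at most 0.023 from the listed value over those 13. A member counts as measured where it had an adjusted p in the table or, for that partial table, in both other tables. The comparisons share groups, so their values are set side by side without a test of likeness.

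Classical class I transcripts were lower and class II transcripts higher in the Cpt1a knockout than in the reference group. Among 20 measured members, the authors' deposited table called 5 higher, against 6.81% of all 16862 genes tested, and 3 lower, against 7.60%. Both classical genes were lower. Among 10 class I-like genes, 1 was lower and none higher, and among 8 class II genes, 5 were higher and none lower. The median log2 fold change was −0.71 over the classical genes, −0.13 over the class I-like genes and 1.01 over the class II genes, against 0.01 over all genes.

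In the Cpt2 group the classical genes again lay below the reference group and class II genes were not called. Of 20 measured members, the authors' deposited table called 1 higher, against 10.3% of all 17475 genes tested, and 5 lower, against 10.7%. By class, 1 of 2 classical genes was lower, 4 of 10 class I-like genes were lower and 1 was higher, and 0 of 8 class II genes were called. Without adjustment, the authors' deposited table gave p of 0.0347 for H2-Eb1 and 0.0316 for H2-Ab1, both below 0 in log2 fold change, and above 0.05 for the other 6. The medians were −0.53, −0.28 and −0.35, against −0.03 over all genes.

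Set directly against the Cpt2 group, the Cpt1a knockout had more transcript of class II genes. Of 21 measured members, the authors' deposited table called 8 higher, against 14.2% of all 17755 genes tested, and 1 lower, against 14.6%. No classical gene was called, with an unadjusted p of 0.0334 for H2-D1 and 0.543 for H2-K1 in the authors' deposited table. Among 10 class I-like genes, 3 were higher and 1 lower, and among 9 class II genes, 5 were higher and none lower. The medians were −0.19, 0.24 and 1.25, against 0.05 over all genes.

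**Figure D3:**
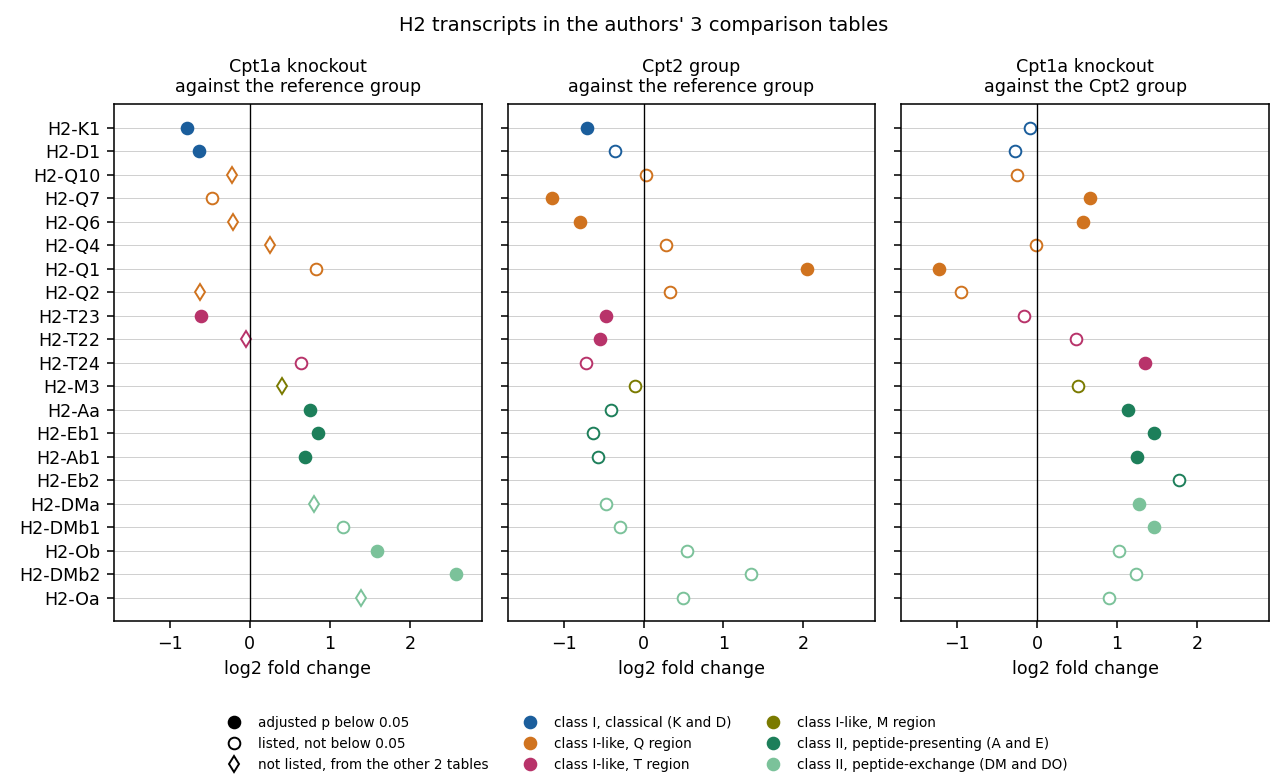
Log2 fold change of each measured H2 gene in the authors' 3 comparisons (first group over second), with filled symbols for an adjusted p below 0.05 and diamonds for values summed from the other tables. Class II genes lie right of 0 in the left and right panels, while H2-K1 and H2-D1 lie left of 0 in all panels.

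H2-K1, at 320 to 438 FPKM in the Cpt1a knockout livers, was 1.72-fold lower there than in the reference group (authors' deposited table, log2 fold change −0.79 with adjusted p = 6.99e-05). In the Cpt2 group it was 1.63-fold lower than in the reference group (authors' deposited table, −0.70 with adjusted p = 6.61e-05). The direct table of the Cpt1a knockout against the Cpt2 group did not call it (authors' deposited table, −0.09 with adjusted p = 0.709).

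H2-D1 was 1.55-fold lower in the Cpt1a knockout than in the reference group (authors' deposited table, −0.63 with adjusted p = 0.00989). Its value in the Cpt2 group against the reference group did not pass (authors' deposited table, −0.36 with adjusted p = 0.164). H2-T23 was 1.53-fold lower in the Cpt1a knockout (−0.62, adjusted p = 0.00524) and 1.38-fold lower in the Cpt2 group (−0.46, adjusted p = 0.0252), both against the reference group, per the authors' deposited tables. H2-K1 and H2-T23 were the members called lower in both groups. H2-Q10 was called in none of the comparisons. The authors' deposited tables gave it 0.03 on the log2 scale in the Cpt2 group against the reference group and −0.25 in the direct comparison. It was not listed for the Cpt1a knockout against the reference group, where the sum of these values was −0.22.

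The Qa-2 genes were lower in the Cpt2 group and were not called in the Cpt1a knockout, both against the reference group. H2-Q7 was 2.21-fold lower in the Cpt2 group (authors' deposited table, log2 fold change −1.15 with adjusted p = 3.11e-09) and H2-Q6 was 1.73-fold lower (−0.79, adjusted p = 9.62e-06). In the direct table both were higher in the Cpt1a knockout than in the Cpt2 group, by 0.66 (adjusted p = 0.00102) and 0.58 (adjusted p = 0.00364) on the log2 scale (authors' deposited table). H2-Q7 in the Cpt1a knockout lay near the threshold against the reference group (authors' deposited table, −0.47 with adjusted p = 0.0526). H2-T22 was lower in the Cpt2 group than in the reference group (authors' deposited table, −0.54 with adjusted p = 0.0120), with more of its 50-base words shared than not.

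H2-Q1 went the other way in the Cpt2 group. It was 4.11-fold higher there than in the reference group (authors' deposited table, log2 fold change 2.04 with adjusted p = 1.10e-10). In the Cpt1a knockout it was 2.35-fold lower than in the Cpt2 group (authors' deposited table, −1.23 with adjusted p = 1.97e-04), and against the reference group it did not pass (authors' deposited table, 0.82 with adjusted p = 0.150). Of its 50-base words, 15.0% occur in other genes, most of them in H2-Q2, which was called in no comparison and had 8 to 13 counts per liver. H2-T24 was 2.54-fold higher in the Cpt1a knockout than in the Cpt2 group (authors' deposited table, 1.35 with adjusted p = 1.53e-04), while H2-M3 and H2-Q4 were called in none of the tables.

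Among class II genes, H2-Eb1 was 1.80-fold higher in the Cpt1a knockout than in the reference group (authors' deposited table, log2 fold change 0.85 with adjusted p = 0.00981). Both chains of the A molecule were higher as well, H2-Aa 1.68-fold (0.75, adjusted p = 0.0217) and H2-Ab1 1.62-fold (0.69, adjusted p = 0.0345), in the authors' deposited table. H2-Ob, which with H2-Oa restrains peptide exchange in B cells, was higher by 1.59 on the log2 scale (adjusted p = 0.0355) and H2-DMb2 by 2.58 (5.98-fold, adjusted p = 0.0294) in the authors' deposited table. These last genes rest on few reads, with 14 to 21 counts per liver for H2-Ob and 3 to 15 for H2-DMb2. H2-DMb2 shares 25.9% and H2-DMb1 22.7% of its 50-base words with other genes, mostly with each other, so their values are uncertain. H2-DMb1 did not pass (authors' deposited table, 1.17 with adjusted p = 0.0629), and H2-DMa was not listed there.

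The A and E chains were also higher in the Cpt1a knockout than in the Cpt2 group. H2-Eb1 was 2.76-fold higher (authors' deposited table, log2 fold change 1.46 with adjusted p = 3.79e-05), H2-Ab1 2.38-fold (1.25, adjusted p = 1.83e-05) and H2-Aa 2.20-fold (1.14, adjusted p = 2.73e-05). Of the exchange genes, H2-DMb1 was 2.75-fold (1.46, adjusted p = 0.00143) and H2-DMa 2.41-fold higher (1.27, adjusted p = 0.00802) in the authors' deposited table. H2-DMb2 (1.23, adjusted p = 0.189), H2-Ob (1.02, adjusted p = 0.0976), H2-Oa (0.90, adjusted p = 0.633) and H2-Eb2 (1.77, adjusted p = 0.395) did not pass in the authors' deposited table. In the Cpt2 group against the reference group, the A and E chains lay at −0.40 to −0.63 on the log2 scale with adjusted p of 0.117 to 0.172 (authors' deposited table).

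The gene lists that follow are read against the shares of all genes given above, 6.81% higher and 7.60% lower for the Cpt1a knockout and 10.3% and 10.7% for the Cpt2 group, both against the reference group, and 14.2% and 14.6% for the direct comparison. Genes that load class I molecules were read as a list of 14. Against the reference group, 6 were lower in the Cpt1a knockout and 7 in the Cpt2 group, with none higher in either, and the direct comparison called 2 higher and 2 lower, near the shares of all genes (authors' deposited tables). B2m, the light chain shared by class I molecules, was at 1160 ± 144 FPKM in the livers (SD, n = 4). It was lower by a log2 fold change of −0.56 (adjusted p = 0.0459) in the Cpt1a knockout and of −1.18 (adjusted p = 5.10e-07) in the Cpt2 group, both against the reference group, per the authors' deposited tables. In the direct table B2m was higher in the Cpt1a knockout than in the Cpt2 group (0.60, 7.15e-04, authors' deposited table). The folding helpers Calr, Pdia3 and Canx (−1.42, −1.05 and −0.81), Tapbp, the bridge to the peptide transporter (−0.54), and Erap1, which trims peptides (−0.70), were the others lower in the Cpt1a knockout in the authors' deposited table.

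Hepatocyte markers were lower beside classical class I in the comparisons with the reference group. Of 10, 6 were lower and none higher in the Cpt1a knockout, and the same count was reached in the Cpt2 group, both against the reference group (authors' deposited tables). Alb, serum albumin, lay at −1.23 and −1.41 there (authors' deposited tables). The medians of the list were −0.71 and −0.91, against 0.01 and −0.03 over all genes. The direct comparison called 3 higher and 1 lower (authors' deposited table). Its median was 0.13 over the list, −0.19 over the classical class I genes and 0.05 over all genes. In the 4 Cpt1a knockout livers the hepatocyte markers summed to 21352 to 30196 FPKM, and none was at 0. The part of hepatocyte makeup in the class I difference was not tested.

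Of 14 regulators of H2 transcription, the authors' deposited tables called 2 higher and 1 lower in the Cpt1a knockout, 1 higher and 1 lower in the Cpt2 group, both against the reference group, and 2 higher and 2 lower in the direct comparison. Ciita, the coactivator of class II genes, was higher in the Cpt1a knockout than in the reference group (log2 fold change 1.72, adjusted p = 0.0197, authors' deposited table), at 0.164 ± 0.066 FPKM in the livers (SD, n = 4). Irf1, an interferon-induced activator, was also higher (0.71, 0.0242) and Irf2, which opposes it, lower (−0.70, 0.00857) in the authors' deposited table. Nlrc5, the coactivator of class I genes, did not pass (0.49, adjusted p = 0.0795, authors' deposited table). In the Cpt2 group Rfx5, a class II promoter factor, was higher (0.64) and Irf2 lower (−0.86) than in the reference group (authors' deposited table). In the direct comparison Irf1 (0.63) and Nfyb (0.53), a subunit of the Y box factor, were higher in the Cpt1a knockout than in the Cpt2 group, and Rela, a subunit of NF-kappa B (−0.92, adjusted p = 5.42e-09), and Rfx5 (−0.59) were lower (authors' deposited table). Cd74 was higher in the Cpt1a knockout than in the reference group (0.86, adjusted p = 0.00151) and than in the Cpt2 group (1.45, 1.46e-09), and did not pass in the Cpt2 group against the reference group (−0.60, 0.0680), in the authors' deposited tables. Ctsl, a protease of the class II pathway that hepatocytes also make, was lower in the Cpt1a knockout in both tables (−2.10 and −1.49, authors' deposited tables).

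Interferon-gamma response genes, a list of 18 of which 17 were measured, had 3 higher and 1 lower in the Cpt1a knockout and 1 higher and 3 lower in the Cpt2 group, both against the reference group (authors' deposited tables). The single genes among these are no larger a share than over all genes. Log2 fold changes, listed or summed, were above 0 in 14 of 17 in the Cpt1a knockout (median 0.48). In the Cpt2 group 12 of 17 were below 0 (median −0.53), both against the reference group, beside medians of 0.01 and −0.03 over all genes. Set against the Cpt2 group, 11 were higher in the Cpt1a knockout and none lower (authors' deposited table), with the guanylate-binding proteins Gbp3 and Gbp4 at 1.48 each and the chemokine Cxcl9 at 1.74. Ifng itself had no count in the 4 livers.

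Among markers of the cells that make class II molecules, most B cell markers were called higher in the Cpt1a knockout than in the reference group. Few macrophage or dendritic cell markers were called, although most lay above 0 there. Log2 fold changes, listed or summed, were above 0 in 11 of 12 Kupffer cell and macrophage and 9 of 10 dendritic cell markers. Their medians were 0.50 and 0.77, against 2.36 over B cell markers and 0.01 over all genes. Of 9 B cell markers, 7 were higher and none lower in the Cpt1a knockout against the reference group, with Ighm at 1.61, Ighd at 2.55 and Cd79b at 2.45 (authors' deposited table). In the Cpt2 group 1 was higher than in the reference group, and 4 were higher in the Cpt1a knockout than in the Cpt2 group (authors' deposited tables). In the same order of comparisons, 7, 1 and 5 of 8 genes of white blood cells in general were higher and none lower (authors' deposited tables). Kupffer cell and macrophage markers had 2 higher of 12, then 1 higher and 3 lower, and finally 10 higher and 1 lower in the direct comparison, the lower one being Cd68 at −2.18 (authors' deposited tables). Cd68 was also the 1 marker called higher in the Cpt2 group against the reference group (2.60, adjusted p = 2.96e-25, authors' deposited table). For the Cpt1a knockout against the reference group its summed value was 0.43. In the Cpt2 group 11 of the 12 markers lay below 0 against the reference group, with a median of −0.38. Dendritic cell markers had 1, 0 and 2 higher of 10, and T and NK cell markers 2 higher of 10, 1 lower of 10 and 2 higher of 11 (authors' deposited tables). In lists of this length, nothing is read from counts of 0 to 2 beside the shares of all genes. Of 8 liver endothelial cell markers, none was called in the first comparison, 1 was lower in the Cpt2 group than in the reference group, and 4 were higher in the Cpt1a knockout than in the Cpt2 group (authors' deposited tables).

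In the Cpt1a knockout livers the B cell list summed to 5.58 to 8.45 FPKM, the white blood cell list to 38.0 to 47.2 FPKM and the T and NK cell list to 3.08 to 4.88 FPKM, beside 25.4 to 49.0 FPKM of class II transcript. The part of cell makeup in the class II differences was not tested.

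**Figure D4:**
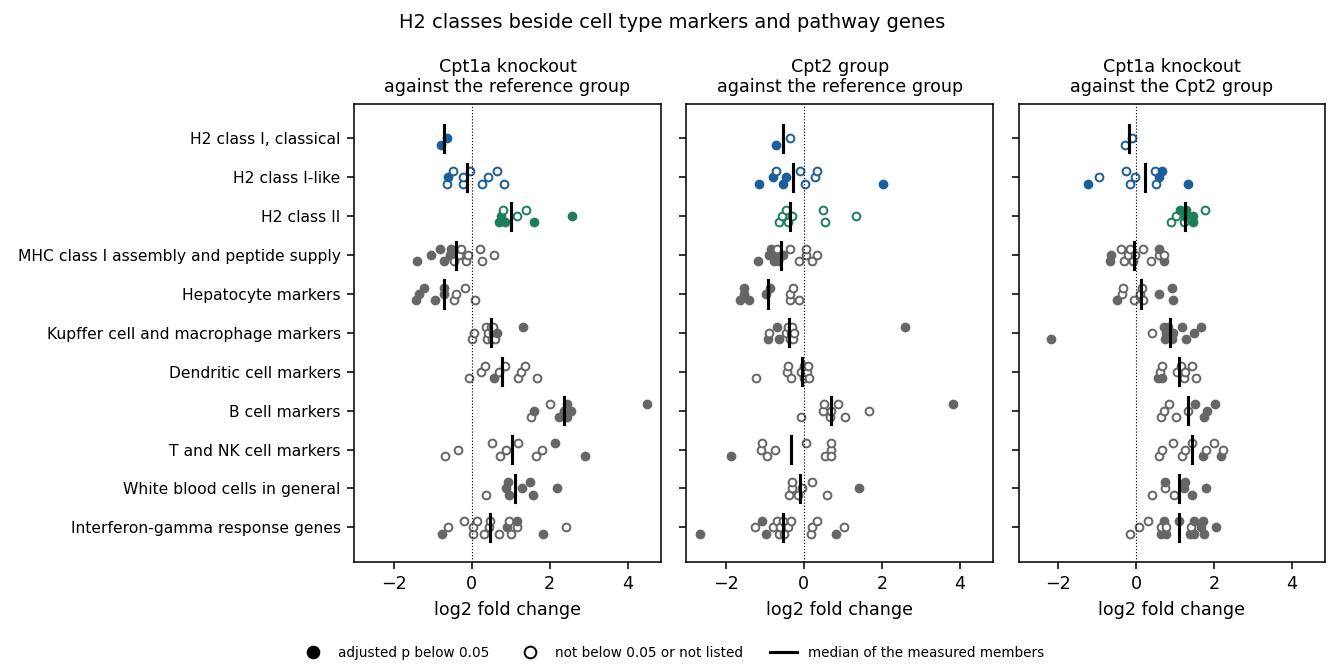
Log2 fold change of each measured gene, by H2 class and by list, in the authors' 3 comparisons, with filled symbols for an adjusted p below 0.05 and a bar at the median of each row. Class II genes, every list of immune cell markers and the interferon-gamma response genes have medians right of 0 in the left and right panels. Classical class I and hepatocyte markers have medians left of 0 in the left and middle panels.

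The H2 span also holds 140 other protein-coding genes. Of 89 measured against the reference group, 9 were called in the Cpt1a knockout (10.1%) and 17 in the Cpt2 group (19.1%), and of 93 measured in the direct comparison 26 were called (28.0%, authors' deposited tables). Over all genes tested, the authors' deposited tables called 2431 of 16862 (14.4%), 3675 of 17475 and 5106 of 17755 (28.8%). By direction, the other genes of the span had 1 higher and 8 lower in the Cpt1a knockout against the reference group. They had 8 higher and 9 lower in the Cpt2 group against it, and 4 higher and 22 lower in the direct comparison (authors' deposited tables). The shares of all genes in the direct comparison were 14.2% higher and 14.6% lower. Within the span, the class II genes lie together between H2-K1 and the complement genes. There the neighbours Psmb8 and Tap2, which serve class I loading, lay at 0.71 and −0.65 on the log2 scale in the Cpt1a knockout against the Cpt2 group (authors' deposited table). Ier3 and Flot1, chosen after their values were seen, lie side by side between the Q and T regions and were higher in the Cpt2 group than in the reference group (2.09 and 1.80, authors' deposited table). They were lower in the Cpt1a knockout than in the Cpt2 group (−1.66 and −1.43, authors' deposited table).

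**Figure D5:**
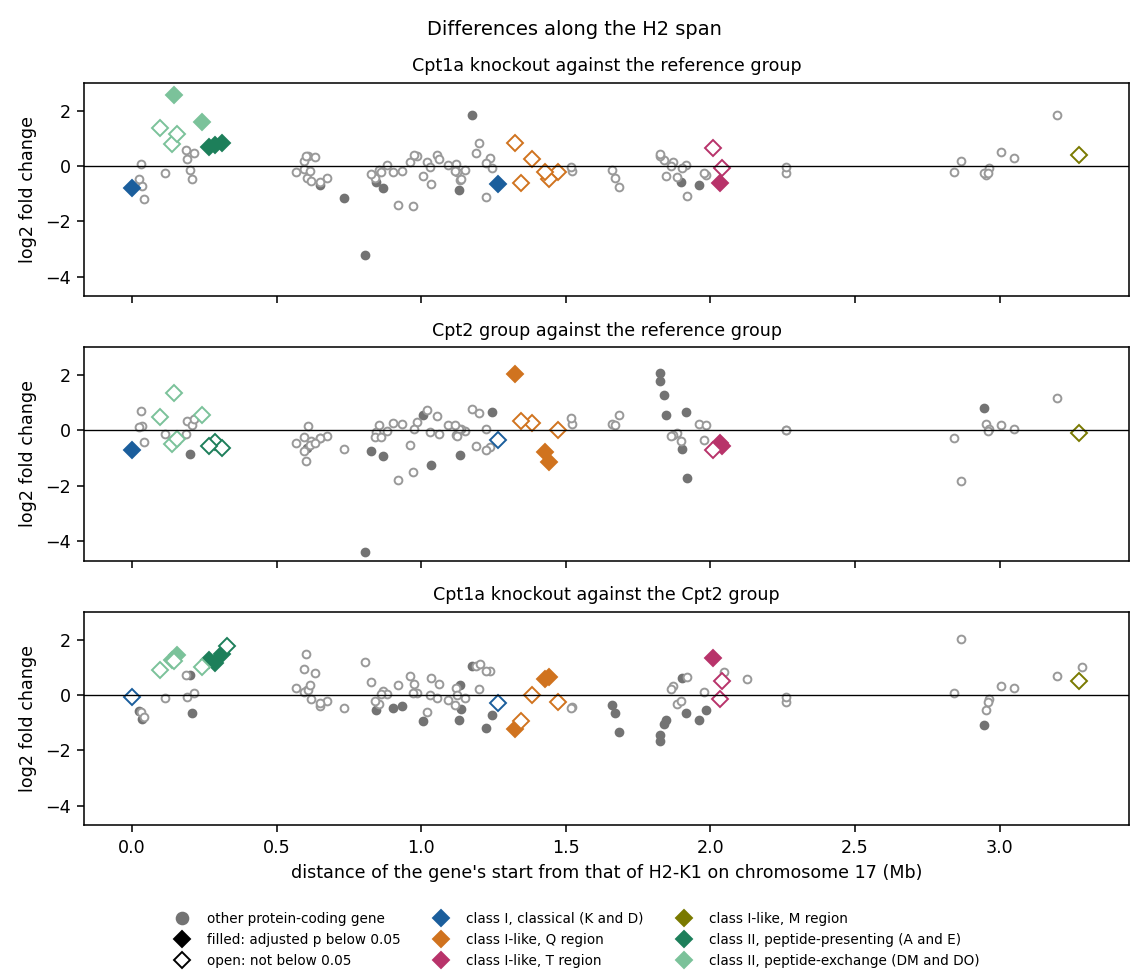
Log2 fold change along the H2 span in the authors' 3 comparisons, plotted by distance of each gene's start from that of H2-K1 (Mb), with H2 genes as coloured diamonds, other protein-coding genes in grey, and filled symbols for an adjusted p below 0.05. Class II genes within 0.5 Mb of H2-K1 lie above 0 in the top and bottom panels, while the other genes scatter on both sides of 0. Of the other protein-coding genes with filled symbols, more lie below 0 than above it in these panels.

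The haplotype could not be identified from these data. H2-Ea-ps (chromosome 17, 34342933 to 34344643, minus strand), the alpha chain of the E molecule, is annotated as a pseudogene, and haplotype b carries a promoter deletion that leaves it silent. It had 0 counts in each of the 4 livers, under a limit of 3 counts, beside 158 to 342 counts for its partner H2-Eb1. Such a count does not identify haplotype b, since no other haplotype was compared. H2-Ea-ps was not tested further. This gene is listed in none of the 3 comparison tables. The haplotypes of the other groups are not given, and a difference in haplotype cannot be told apart from the knockout in any comparison.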

How the data were processed

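RNA was taken from liver and libraries were made by Novogene, per the labels' protocols. Per the submitters' processing notes, HISAT2 was the aligner and GRCm38 (mm10) the build. The sources used here give no counter, strand setting or rule for reads shared by similar genes. The authors deposited raw read counts per gene and FPKM. Their 3 comparison tables hold, per the file headers, log2 fold changes with raw and adjusted p-values. The test behind them is not given, and the group means beside them were not used.

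The series holds 1 group, so no test between groups was fitted here, and a batch shared with the Cpt2 samples' earlier series cannot be told apart from genotype. The analyses used Python 3.11.15 with pandas 2.3.3 and Biopython 1.88, and edgeR 4.0.16 and DESeq2 1.42.0 (R 4.3.3) for library sizes on the deposited counts only. The FPKM library size was 1.06 to 1.15 times the count total. The partial table's adjusted p-values match an adjustment over 16862 genes, and values of 1 were taken as lacking an adjusted p. Another 8 per-sample columns match no sample and were not used. Scripts were tested on simulated data. Shared words were counted between GENCODE M21 transcripts, where 34 members were found by ID.

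The members, their classes, 12 gene lists (130 of 137 symbols found) and the rule for named genes were chosen with earlier results of these data known. The rule named every called member and every member with a mean of at least 1 FPKM. From each list it allowed the 4 genes with the smallest adjusted p. That part was not followed in full, since fewer or none are named for several lists and others stand as examples. The values of 1 listed gene are not reported here. Alternatives were other thresholds, a minimum mean count of 10, other library sizes, a pseudocount of 0.1 in place of 1, and leaving out each liver.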

Additional observations from a re-analysis of the deposited data

Results flagged for a closer look

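Of 19 levels examined over the 4 livers (16 members and 3 class sums), H2-M3 had 1 liver apart: the gap of liver 4 to the next liver was 0.931 of the range, past Dixon's critical value. Chance puts about 1 in 20 such groups past this value.

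In the authors' deposited table of the Cpt1a knockout against the Cpt2 group, 9 members differed between the groups. The class II genes H2-Eb1 (log2 fold change 1.46), H2-DMb1 (1.46), H2-DMa (1.27), H2-Ab1 (1.25) and H2-Aa (1.14) were higher in the Cpt1a knockout, as were H2-T24 (1.35), H2-Q7 (0.66) and H2-Q6 (0.58). H2-Q1 was lower (−1.23). H2-Eb1, H2-DMb1, H2-DMa, H2-Ab1, H2-Aa and H2-T24 lay above 0 in the Cpt1a knockout and below 0 in the Cpt2 group, each against the reference group (for H2-DMa by the sum of tables).

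Among H2 genes that are not annotated as protein-coding, 4 had more than 3 counts in every liver. H2-K2 had a mean of 7.06 FPKM, H2-Q5 of 4.67, H2-T10 of 0.698 and H2-T-ps of 0.488. In the authors' deposited tables H2-T-ps was 8.36-fold higher in the Cpt2 group than in the reference group (adjusted p = 2.00e-11) and 8.62-fold lower in the Cpt1a knockout than in the Cpt2 group (6.44e-15). H2-T23 shares 6.05% of its 50-base words with H2-T-ps.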

How the results depend on the processing

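No paired analysis was possible because the series holds 1 group. Of 43 values under alternative settings, 35 stayed within 1.5 times the main count or 1 SD of the main level. At an adjusted p below 0.01, 4 of the 8 members called in the Cpt1a knockout against the reference group were called, by construction of a stricter threshold, against 8.24% of all genes. Where a size of at least 1 on the log2 scale was also required, 2 of 20 members were called in the Cpt1a knockout and 2 of 20 in the Cpt2 group, both against the reference group, beside 6.58% and 10.6% of all genes. Leaving out each liver in turn gave summed FPKM of 498 to 549 for classical class I, 386 to 427 for class I-like and 29.96 to 37.8 for class II members. The median spread of H2 members, 0.26, became 0.24 to 0.26 on leaving out each liver, 0.30 with a pseudocount of 0.1, 0.21 over all members with a count, and 0.28 with TMM library sizes. For these the cause was not tested, and the spread of all genes was computed in the main setting only. Members under about 20 counts per liver (H2-DMb2, H2-Ob, H2-Q2, H2-Oa, H2-Eb2) are limited by depth.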

Other observations

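Class I-like genes outside the H2 region, a list of 11 of which 9 were measured, moved in both directions. Cd1d1, which shows lipids to natural killer T cells, was at 212 ± 26.7 FPKM in the livers (SD, n = 4) and higher in the Cpt1a knockout than in the reference group (log2 fold change 0.91, adjusted p = 0.00830) and than in the Cpt2 group (0.75), per the authors' deposited tables. Raet1e, a stress ligand of an activating natural killer cell receptor, was at 1.28 ± 0.347 FPKM (SD, n = 4). It was higher in the Cpt1a knockout (1.81, 0.00116) and in the Cpt2 group (2.15), both against the reference group, per the authors' deposited tables. Mr1, which shows microbial vitamin metabolites to T cells, was lower in both (−0.95 and −0.97, authors' deposited tables). Azgp1, a secreted relative of class I, was at 617 ± 24.3 FPKM (SD, n = 4) and lower in the Cpt1a knockout than in the reference group (−0.51, authors' deposited table). Fcgrt, the neonatal Fc receptor heavy chain, was lower in the Cpt1a knockout than in the Cpt2 group (−0.48, authors' deposited table), and H60c had no count in any liver.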
